A study of Homo sapiens with 16 samples.

Results

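Histone genes, both those whose messages are made during DNA replication and those for the replacement variants, were followed in THP-1, a human acute monocytic leukemia cell line that becomes macrophage-like when given the phorbol ester PMA. A member was a protein-coding row of the gene count table whose GENCODE symbol is H1, H2AC, H2BC, H3C or H4C with a number, H4-16, H2AX, H2AZ1, H2AZ2, H2AJ, H3-3A, H3-3B, MACROH2A1 or MACROH2A2, with at least 16 counts summed over 16 libraries. The rule left 59 members among the 60676 genes of the table: 6 of class H1, 13 H2A, 15 H2B, 8 H3, 9 H4 and 8 replacement variants. Of 81 symbols that matched, 79 had a row, 4 of them held no count and 16 held 1 to 15 counts. H2AC4 with 16 counts and H2BC17 with 17 lay just inside the limit, and H3C7 and H3C12 with 15 and H3C8 with 14 lay just outside. In all, 37 members lie on chromosome 6 and 12 on chromosome 1, where the histone gene clusters are (hg38).

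RNA sequencing covered 4 stable THP-1 lines that carry a short hairpin RNA: shNC, a non-targeting control, and shUHRF1, shDNMT1 and shDNMT3B, named for UHRF1, which brings DNMT1 to replicated DNA, and for the DNA methyltransferases DNMT1 and DNMT3B. Every line was kept for 48 h in the solvent DMSO or in PMA, with 2 libraries for each of the 8 groups. All the cells carry a hairpin, so no group stands for unmodified THP-1. Nothing in the labels says whether the 2 libraries of a group came from separate cultures, and p-values then measure the spread between libraries only. Because RNA was measured in bulk, fewer cells of a kind and less RNA per cell cannot be told apart.

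Total counts ran from 13883556 to 23151864 per library and were higher in every library numbered 1 than in any numbered 2. For 12 of the 16 samples the description named another group than the title, and groups here follow the names of the table columns. No line had a called decrease in the transcript its hairpin is named for. UHRF1 was at 81.6 ± 13.6 CPM (counts scaled to library size with TMM factors, mean ± SD, n = 2) in shUHRF1 DMSO and 105 ± 25.1 in shNC DMSO, and DNMT1 at 96.8 ± 20.4 in shDNMT1 DMSO and 115 ± 35.8 in shNC DMSO, and neither difference passed (adjusted p = 0.605 and 0.787 in the quasi-likelihood test of edgeR). DNMT3B was at 6.63 ± 0.335 CPM in shDNMT3B DMSO and 9.23 ± 0.703 in shNC DMSO, with no overlap and lower as labelled, and did not pass (unadjusted p = 0.03, adjusted p = 0.212). It was higher in shDNMT3B PMA than in shNC PMA (2.97 ± 0.317 and 1.42 ± 0.231 CPM, adjusted p = 0.00688). UHRF1 was at 10.92 ± 1.846 CPM in shUHRF1 PMA and 6.026 ± 1.986 in shNC PMA. DNMT1 was at 91.85 ± 11.01 CPM in shDNMT1 PMA and 67.43 ± 14.92 in shNC PMA. Neither of these 2 passed (adjusted p = 0.129 and 0.376), and both passed as higher with the replicate number as a block in the fit (adjusted p = 0.000375 and 0.00418). These are RNA levels only, and the knockdown lines are named below only by what their libraries are labelled. The library shNC DMSO replicate 1 held 491 CPM over 7 erythroid genes, against 0 to 2.23 in the other 15, and the shNC results that it moved most are also given without it. All 12 myeloid leukemia markers were detected in DMSO in each line, and the 5 macrophage markers together stood at between 165 and 288 CPM in the DMSO libraries and between 7291 and 28720 in the PMA libraries.

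Histones wrap DNA into nucleosomes, with H2A, H2B, H3 and H4 in the core and linker histone H1 between cores. Replication-dependent histone genes are transcribed in S phase, and their messages end in a conserved stem-loop in place of a poly(A) tail. The stem-loop binding protein SLBP holds that end, and the mature message is degraded when DNA synthesis stops. Replacement variants are made throughout the cell cycle from polyadenylated messages and are deposited by their own chaperones. The libraries here were prepared from RNA bound to oligo-dT beads, which retain poly(A) tails, so counts of the replication-dependent genes come from whatever part of their transcripts was captured in this way.

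The members differ in their 3′ ends. A stem-loop of 16 bases was found within 150 bases after the stop codon in 50 of the 59 members, starting 23 to 63 bases past the stop, and in 75 of 19950 protein-coding genes with an annotated stop codon (0.376%), 70 of which are histone genes that match the symbols. Among the 9 members without it were H1-10, H2AZ1, H2AZ2, H2AJ, H3-3A, H3-3B, MACROH2A1 and MACROH2A2. The 4 sequences below come from hg38, with the stem-loop in capitals and 5 flanking bases in lower case, and were chosen for H2BC21 and H2BC12, which rose after PMA, H2BC9, which fell, and the variant H2AX, the 1 variant that has it.
H2BC21 (chr1:149886188-149886203, minus strand): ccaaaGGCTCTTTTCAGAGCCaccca
H2BC12 (chr6:27146366-27146381, minus strand): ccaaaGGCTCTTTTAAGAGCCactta
H2BC9 (chr6:26252055-26252070, plus strand): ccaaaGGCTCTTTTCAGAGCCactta
H2AX (chr11:119094898-119094913, minus strand): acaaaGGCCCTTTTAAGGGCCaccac
The stem-loop of H2BC21 is the same as that of H2BC9, and 32 members share it. What differs is the annotated 3′ end. In GENCODE 44, all transcripts of 34 members end within 18 bases after the stem-loop, H2BC9 and H2BC12 among them, whereas 16 have a transcript that reaches at least 430 bases further along the genome, 1729 for H2BC21 and 1024 for H2AX. The table holds no positions of reads, so which of these ends was counted is not known.

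Almost all histone reads came from the 9 members without a stem-loop. They held 706091 of the members' counts over the 16 libraries, the 16 members with a longer annotated end held 53540, and the 34 that end at the stem-loop held 7882. Within a group, the members without a stem-loop made up 87.1% to 95% of histone counts. Levels were compared between genes per kilobase of annotated exon, as the mean of 16 libraries. H2AZ1 stood at 155 CPM per kb, H3-3A at 129, H2AX at 81.5, H3-3B at 59.1, H1-10 at 54.2 and MACROH2A1 at 48.1. The most abundant replication-dependent genes on that scale were H2BC12 at 15.8 and H1-2 at 14.6 CPM per kb, followed by H2BC21 at 6.91 and H2AC6 at 5.66. That order depends on the annotated length. In CPM, H2BC21 stood at 15.37, H1-2 at 10.65, H2AC6 at 9.44 and H2BC12 at 7.84. All members together summed to between 1940 and 3464 CPM per library. In that sum the DMSO and PMA libraries overlapped in every line.

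Of the 59 members, 34 passed the filter on low counts and were tested: all 9 without a stem-loop, 13 of the 16 with a longer annotated end and 12 of the 34 that end at the stem-loop. A gene can pass that filter through the group in which it is high, so counts among the 34 describe those genes and no others. In the PMA response of shNC, 10 tested members rose (29.4%, against 28.4% of all 16503 genes tested) and 10 fell (29.4%, against 26.0%). In shUHRF1, 11 rose (29.4% of all genes did) and 10 fell (25.5%). In shDNMT1, 10 rose (28.6%) and 7 fell (24.1%), and in shDNMT3B 9 rose (25.2%) and 6 fell (19.7%). The share of members that changed was thus close to that of all genes, and the members split in direction. H3C14 and H3C15, which hold equal counts, are both among the fallers in shNC and shUHRF1. Median log2 fold changes of the 34 were -0.13, 0.57, 0.41 and -0.12 in the order shNC, shUHRF1, shDNMT1 and shDNMT3B (0.48 in shNC without shNC DMSO replicate 1), where those of all genes lay between -0.01 and 0.02. All log2 fold changes are PMA minus DMSO from edgeR, and a call is an adjusted p under 0.05 over all genes tested. The share of counts from mitochondrial genes was also lower after PMA, at both replicate numbers in every line: from 24.4% and 9.97% to 10.3% and 4.76% in shNC, from 26.6% and 9.86% to 9.54% and 3.92% in shUHRF1, from 28.0% and 12.6% to 7.71% and 4.86% in shDNMT1 and from 29.0% and 14.5% to 19.5% and 9.35% in shDNMT3B. Its part in the PMA changes was not tested.

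Among the replacement variants, H2AX, H2AZ2 and MACROH2A2 fell after PMA in all 4 lines, whereas H3-3B rose in all 4 and MACROH2A1 in 3. H2AX, whose phosphorylated form marks DNA double-strand breaks, was at 340 and 153 CPM in the shNC DMSO libraries and at 36.1 and 24.4 in the shNC PMA libraries (replicate 1 first). The PMA libraries lay below both DMSO libraries in each line, at 22.9 to 69.8 CPM against 142 to 340. The fall was 3.02 ± 0.50 on the log2 scale in shNC (adjusted p = 0.000249) and 2.68, 2.38 and 1.96 in shUHRF1, shDNMT1 and shDNMT3B (adjusted p = 0.000563, 0.00131 and 0.00532, the last 0.0527 without shDNMT3B DMSO replicate 1). H2AZ2, 1 of the 2 genes of the variant H2A.Z found at promoters, fell with it in all 4 lines, by 2.17 ± 0.37 in shNC (270.5 and 145 to 49.0 and 43.3 CPM, adjusted p = 0.000313) and by 1.57 to 2.43 in the others.

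H2AZ1, the other H2A.Z gene, dropped from 720.5 and 465 CPM to 138 and 106 in shNC, with no overlap. The decrease was 2.28 ± 0.33 on the log2 scale (adjusted p = 7.09e-05), and 1.56 in shUHRF1 and 1.40 in shDNMT1 (adjusted p = 0.00118 and 0.0026). In shDNMT3B it was at 545 and 394 CPM in DMSO and at 441 and 337 in PMA, and these libraries overlapped (log2 fold change -0.27).

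MACROH2A2 and MACROH2A1 encode macroH2A, an H2A with a large C-terminal domain. MACROH2A2 was at 9.46 and 9.56 CPM in shNC DMSO and at 2.15 and 1.80 in shNC PMA. It fell by 2.25 ± 0.28 there (adjusted p = 1.98e-05) and by 1.58, 1.13 and 1.05 in shUHRF1, shDNMT1 and shDNMT3B (adjusted p = 0.00029, 0.00562 and 0.00528). MACROH2A1 moved the other way. It was at 728 and 514.5 CPM in shNC DMSO and at 950 and 783 in shNC PMA, where the difference did not pass (0.48 ± 0.26, adjusted p = 0.131, and 0.00179 with the replicate number as a block). MACROH2A1 rose by 0.77, 1.01 and 1.26 on the log2 scale in shUHRF1, shDNMT1 and shDNMT3B (adjusted p = 0.0225, 0.00543 and 0.00163), and PMA lay above DMSO in every line. The call in shUHRF1 was lost without shUHRF1 DMSO replicate 2 or PMA replicate 1 (log2 fold changes 0.605 and 0.615). It was also lost with upper-quartile factors (0.458, adjusted p = 0.154). The call in shDNMT1 was lost without DMSO replicate 2 (0.805). H2AJ, another H2A variant, was at 52.6 and 27.1 CPM in shNC DMSO and at 19.3 and 12.6 in shNC PMA. It passed in shNC (log2 fold change -1.32 ± 0.44, adjusted p = 0.0223, and 0.225 without shNC DMSO replicate 1 or 0.146 without shNC PMA replicate 2) and not in the other lines, whereas with the block it passed in all 4 (adjusted p from 1.18e-07 to 0.00729).

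The H3.3 genes encode 1 protein and differed in response. H3-3B rose in each line, from 309 and 299 to 544 and 482 CPM in shNC (log2 fold change 0.75 ± 0.17, adjusted p = 0.00256) and by 0.92, 0.73 and 0.58 in shUHRF1, shDNMT1 and shDNMT3B (adjusted p = 0.000605, 0.00348 and 0.0152). In shDNMT3B that call was lost without any 1 of 3 libraries, PMA replicate 2 being the exception (log2 fold changes 0.462 to 0.610). It was also lost with upper-quartile factors (0.340, adjusted p = 0.129) and without the filter on low counts (0.530, adjusted p = 0.104). H3-3A was at 619 and 474 CPM in shNC DMSO and at 512 and 411 in shNC PMA, and its log2 fold changes of -0.40 to 0.32 over the 4 lines did not pass. With the replicate number as a block H3-3A passed as lower in shDNMT1 (adjusted p = 0.0104) and as higher in shDNMT3B (adjusted p = 0.0352). The exons of H3-3B meet those of UNK, and the exons of MACROH2A2 those of AIFM2, on the other strand.

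**Figure D1:**
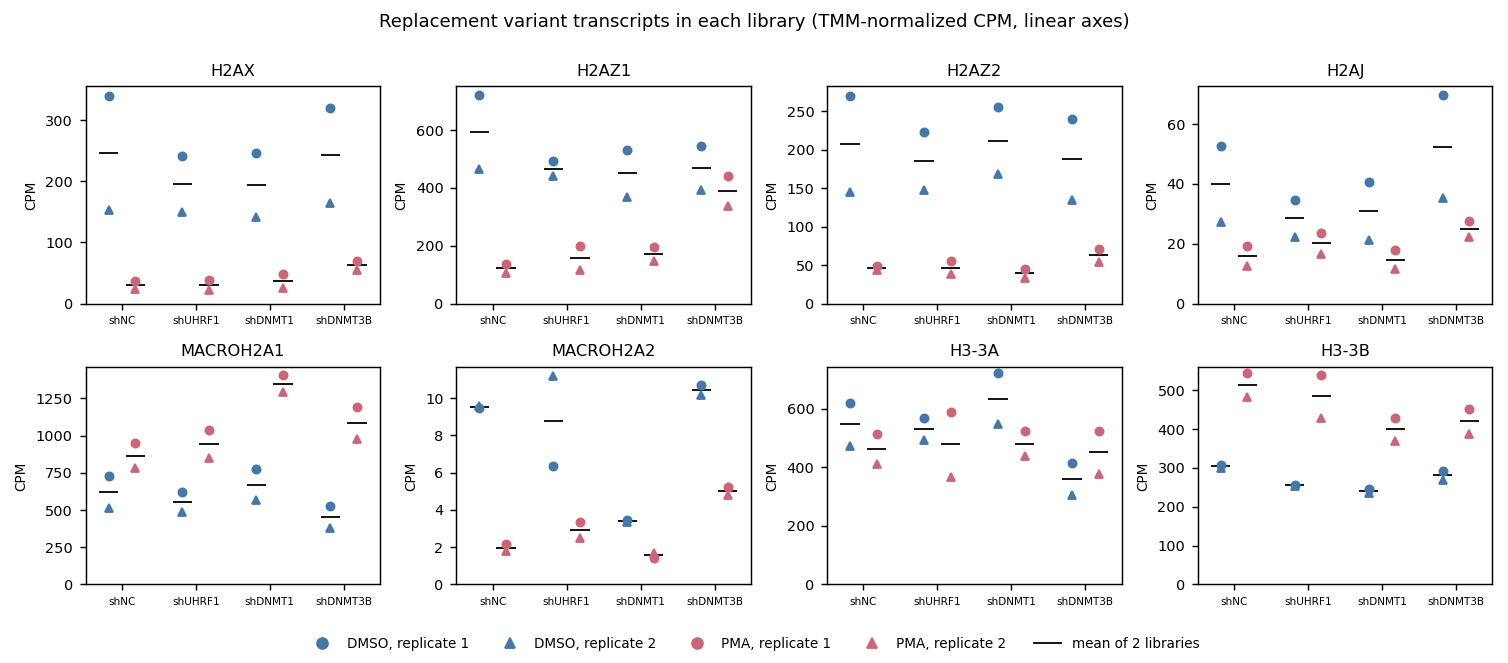
CPM (TMM-normalized, linear axes from 0) of the 8 replacement variants in each of the 16 libraries, by line, with DMSO in blue, PMA in red, replicate 1 as circles, replicate 2 as triangles and a black bar for the mean of 2. H2AX, H2AZ2 and MACROH2A2 lie lower in PMA in every line, H2AZ1 does so except in shDNMT3B, and H3-3B and MACROH2A1 lie higher.

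Of the replication-dependent classes, H2B had the most risers after PMA in each line and also the most tested genes, 9. Of these 9, 5 rose in shNC (55.6%) and 4 in each other line (44.4%). Of all genes 28.4%, 29.4%, 28.6% and 25.2% rose in shNC, shUHRF1, shDNMT1 and shDNMT3B. H2BC21 led the risers. H2BC21 (chr1:149884459-149886682, minus strand, a single exon of 2224 bases that includes the stem-loop and 1729 bases past it) was at 2.42 and 1.54 CPM in shNC DMSO and at 42.3 and 40.8 in shNC PMA. In shUHRF1 it went from 1.02 and 0.808 to 43.6 and 40.8 CPM, in shDNMT1 from 1.52 and 0.935 to 26.0 and 22.4, and in shDNMT3B from 0.898 and 1.02 to 10.7 and 9.21. No PMA library reached down to a DMSO library in any line. Log2 fold changes were 4.39 ± 0.25 in shNC, 5.52 ± 0.27 in shUHRF1, 4.30 ± 0.26 in shDNMT1 and 3.37 ± 0.26 in shDNMT3B, and H2BC21 had the smallest adjusted p of all members in each (1.81e-08, 4.91e-09, 3.19e-08 and 4.77e-07). Its share of all H2B counts was 13.3% in shNC DMSO (95% Wilson interval 10.7% to 16.4%) and 58.2% in shNC PMA (56.2% to 60.2%), intervals that cover counting error only.

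H2AC6, an H2A gene with an annotated end 14432 bases along the genome beyond its stem-loop, and with exons that meet those of ENSG00000291336 on the same strand, came next. It was at 2.37 and 2.07 CPM in shNC DMSO and at 22.3 and 25.4 in shNC PMA, and the groups did not overlap in any line. Its log2 fold change was 3.42 ± 0.29 in shNC, 4.05 ± 0.32 in shUHRF1, 3.69 ± 0.30 in shDNMT1 and 2.04 ± 0.28 in shDNMT3B (adjusted p = 6.15e-07, 2.61e-07, 5.65e-07 and 6.29e-05). H2BC12 rose too, although it has no annotated end past the stem-loop, from 4.36 and 2.39 to 15.9 and 13.85 CPM in shNC, and by 1.97 to 3.05 on the log2 scale over the 4 lines (adjusted p = 2.99e-05 in shNC). H2BC5 and H4C8 rose in the 4 lines as well, from 1.16 ± 0.814 to 6.06 ± 1.02 and from 0.661 ± 0.0422 to 3.63 ± 0.378 CPM in shNC. H2BC4 rose in shNC, shUHRF1 and shDNMT3B, H2BC8 in shNC, H2AC25 in shUHRF1 and H2BC18 in shDNMT1. With the replicate number as a block H2AC25 also passed in shNC and shDNMT1 (adjusted p = 0.00801 and 0.025) and H2BC4 in shDNMT1 (adjusted p = 0.0201). Of the 26 H2BC4 counts in shNC DMSO, 23 were in replicate 1, and without that library the log2 fold changes in shNC were 3.36 in place of 2.38 for H2BC5, 4.02 in place of 1.96 for H2BC4 and 2.88 in place of 1.91 for H2BC8. The calls of H2BC4, H2BC18, H2AC25 and, in shUHRF1, of H2BC5 were less stable. Those of H2BC18 and, in shDNMT3B, of H2BC4 were lost without any 1 of the 4 libraries (log2 fold changes 1.265 to 1.957 and 1.877 to 2.187). In shUHRF1 those of H2BC4, H2BC5 and H2AC25 were lost without DMSO replicate 2 (1.917, 1.145 and 1.138) or PMA replicate 1 (1.687, 1.289 and 1.127). That of H2BC4 was also lost there without DMSO replicate 1 (1.942). With upper-quartile factors, H2BC4 and H2BC5 in shUHRF1 lost their calls (adjusted p = 0.0576 and 0.0574). So did H2BC18 in shDNMT1 and H2BC4 in shDNMT3B (adjusted p = 0.0652 and 0.0646). In shNC the call of H2BC4 was lost without replicate 2 of DMSO or of PMA (adjusted p = 0.0917 and 0.0764). The H2BC4 and H2BC18 exons meet those of HFE and of the monocyte receptor gene FCGR1A on the other strand, and the strand setting of the counting is not given in the sources used here.

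The replication-dependent genes that fell in shNC were H2BC9, H2AC20, H3C14, H3C15 and H1-4, which all end at the stem-loop. H2BC9, an H2B gene, was at 4.05 and 1.33 CPM in shNC DMSO and at 0.105 and 0.144 in shNC PMA. H2AC20 was at 4.94 and 1.33 CPM in shNC DMSO and at 0.315 and 0.0721 in shNC PMA. PMA lay below DMSO for both in every line. The log2 fold change of H2BC9 was -4.38 ± 0.94 in shNC (adjusted p = 0.00167) and -2.31 to -3.42 in the others, and that of H2AC20 was -3.87 ± 0.87 in shNC (adjusted p = 0.00227) and -2.96 to -3.96 in the others. Of the calls in the knockdown lines, that of H2BC9 in shUHRF1 was lost without DMSO replicate 1 or either PMA library (adjusted p from 0.0594 to 0.202), in shDNMT1 without the same (0.0546 to 0.127) and in shDNMT3B without DMSO replicate 1 or PMA replicate 2 (0.0711 and 0.0707). That of H2AC20 was lost in shDNMT1 without DMSO replicate 1 or PMA replicate 2 (adjusted p = 0.0658 and 0.0713) and in shDNMT3B without replicate 1 of DMSO or of PMA (0.0573 and 0.0894). H2AC20 and H2BC21 are neighbours on opposite strands of chromosome 1, and in all 4 lines the former fell and the latter rose.

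H1-5, a linker histone gene that ends at the stem-loop, had 17 counts in shNC DMSO and none in shNC PMA, and no count in any of the 8 PMA libraries. Of these 17 counts, 16 were in shNC DMSO replicate 1, the library with erythroid transcripts, and 1 in replicate 2. The shNC bound given next thus rests almost wholly on that 1 library. A floor of 3 counts over the group makes the DMSO level at least 4.93-fold higher in shNC, 5.64-fold in shUHRF1, 5.35-fold in shDNMT1 and 7.92-fold in shDNMT3B. It passed the test in the 3 knockdown lines (adjusted p = 0.04, 0.0467 and 0.0304) and not in shNC (adjusted p = 0.0503, and 0.00586 with the block), and each of the 3 calls was lost when a library was left out (adjusted p up to 0.189, 0.163 and 0.113). H3C14 and H3C15 hold equal counts in all 16 libraries, 104 each, and 98.9% and 100% of their 150-base stretches occur in the other gene, so they were read as 1 value. Its 23 counts in shNC DMSO against 0 in shNC PMA make DMSO at least 6.67-fold higher, its 28 against 0 in shUHRF1 at least 7.18-fold, and it passed in both (adjusted p = 0.00335 and 0.00273, the former 0.0157 without shNC DMSO replicate 1). In shDNMT1 it kept 6 counts in PMA against 11 in DMSO and in shDNMT3B 6 against 30, and it did not pass there (log2 fold change -0.73 and -1.97, adjusted p = 0.504 and 0.0654, the latter 0.0372 with the block). H1-4 fell in shNC, from 22 counts to 3, a ratio of 6.38 with a 95% counting interval of 1.92 to 33.3 (adjusted p = 0.0394), and that call was lost without shNC DMSO replicate 1 or either shNC PMA library (adjusted p from 0.0695 to 0.266).

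**Figure D2:**
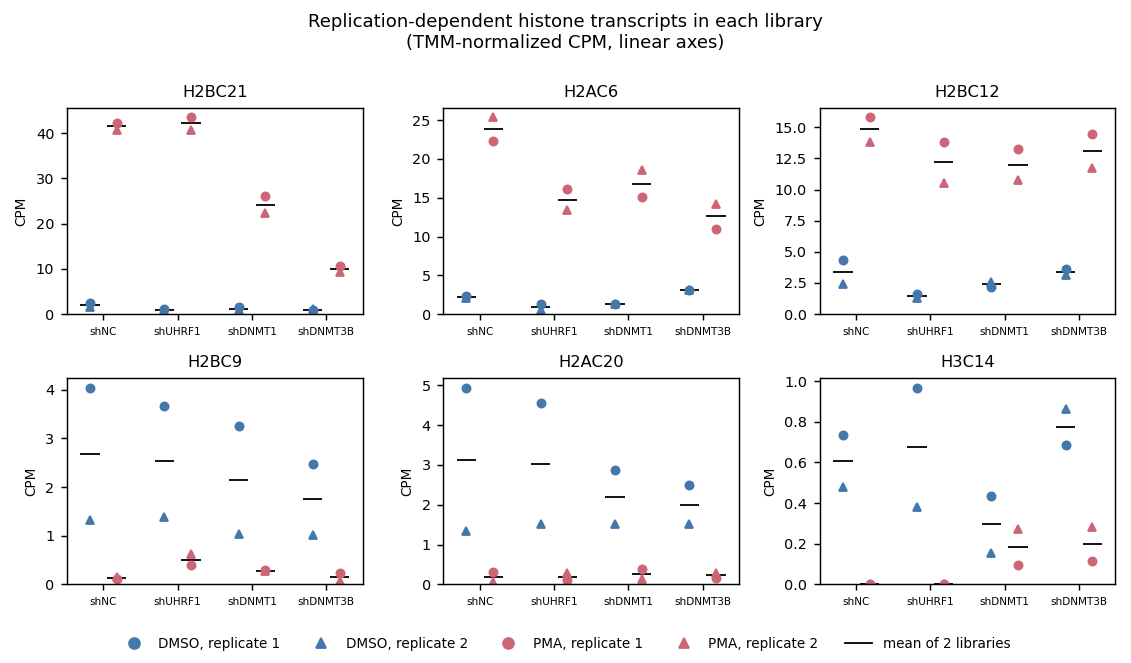
CPM (TMM-normalized, linear axes from 0) of 6 replication-dependent genes in each of the 16 libraries, with DMSO in blue, PMA in red, replicate 1 as circles, replicate 2 as triangles and a black bar for the mean of 2. The upper row holds genes that rose after PMA, H2BC21 least in shDNMT3B, and the lower row holds genes that fell, with H3C14 at 0 in the PMA libraries of shNC and shUHRF1.

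H2BC21, H2AC6, H2BC12, H2AC25, H3C10, H3C14, H4C14 and H4C15 are named as the most abundant of their classes, whereas H2BC9, H2AC20, H1-2, H1-4, H1-5, H2BC4, H2BC5, H2BC8, H2BC18 and H4C8, and below H2AC7, H2BC14, H2BC17, H2BC26, H3C2 and H3C4, were picked after their values were seen. H4C14 and H4C15 share 92.2% and 100% of their 150-base stretches. H4C14 had 61 and 90 counts in shNC DMSO and H4C15 41 and 0, and H4C14 was called higher in all 4 lines while H4C15 was called in none (the H4C14 call was lost without replicate 2 of DMSO or of PMA in shUHRF1 and in shDNMT3B, with adjusted p from 0.0795 to 0.111). How the counting divided reads between the pair is not known, so the sum is given. It was 5.36 and 4.78 CPM in shNC DMSO and 13.45 and 18.0 in shNC PMA, and it stood between 2.76 and 7.17 CPM over all DMSO libraries and between 12.4 and 18.0 over all PMA libraries. H3C10, had log2 fold changes of -0.01 to 1.26 and did not pass in any line.

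Grouped by annotated 3′ end, the directions differed. In shNC, 6 of the 13 tested genes with a longer annotated end rose and 1, H2AX, fell, and of the 12 that end at the stem-loop 2 rose and 5 fell, where 28.4% of all genes rose and 26.0% fell. Counts were 7 and 1 against 1 and 6 in shUHRF1, 6 and 1 against 1 and 3 in shDNMT1, and 6 and 1 against 1 and 3 in shDNMT3B. The 3 of 12 that fell in these last lines are 25.0%, near the 24.1% and 19.7% of all genes. With the replicate number as a block, counts were 7 and 2 against 2 and 7 in shNC (34.5% of all genes rose and 32.6% fell), 7 and 1 against 3 and 6 in shUHRF1 (35.4% and 32.5%), 8 and 1 against 1 and 4 in shDNMT1 (34.4% and 31.0%), and 6 and 1 against 1 and 5 in shDNMT3B (32.5% and 27.5%). Median log2 fold changes were 0.71, 1.52, 1.57 and 0.48 for the genes with a longer end, and -1.88, -2.17, -0.73 and -0.94 for the genes that end at the stem-loop, in the order shNC, shUHRF1, shDNMT1, shDNMT3B (-1.75 in shNC with genes without PMA counts at their bounds). Without shNC DMSO replicate 1 the medians of shNC were 1.64 and -1.13. The groups of genes overlapped, since H2BC12 and H2BC8 rose without a longer end. H3C14 and H3C15, which hold equal counts, enter these counts and medians as 2 genes. Both are among the fallers in shNC and shUHRF1, so 1 measurement counts there as 2. This grouping was made with the values known and was not tested.

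**Figure D3:**
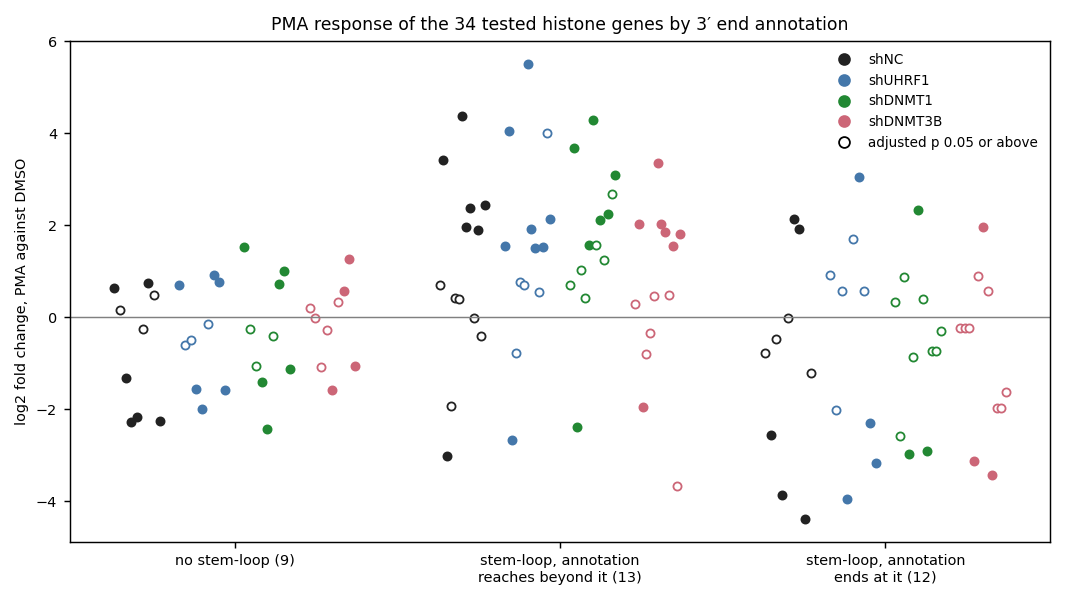
Log2 fold change of PMA against DMSO for the 34 tested members, in columns for the 9 genes without a stem-loop, the 13 with an annotated transcript past it and the 12 that end at it, with 1 colour per line, filled points for an adjusted p under 0.05 and open points otherwise. The 8 values with no count in 1 group are not drawn, and the middle column holds most of the risers.

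The 25 members that did not pass the filter held 16 to 74 counts each. Of these 25, 22 had more counts in the 8 DMSO libraries than in the 8 PMA libraries and 3 (H2AC7, H2BC26 and H3C4) had fewer. Together they had 610 counts in DMSO and 205 in PMA. These are raw counts, and the summed depth of the PMA libraries was the smaller. H4C16, picked after its values were seen, had 12 counts in DMSO and 11 in PMA. It is among the 22 with more in DMSO only before depth is allowed for. The same share was not computed for other genes with so few counts, so the 22 of 25 has no baseline. H3C2 had 50 counts in DMSO and H2BC14 and H2BC17 had 30 and 17, all with none in PMA. In 22 of these 25 members the annotation ends at the stem-loop, and those 22 summed to 4.84 and 1.97 CPM in the shNC DMSO libraries and to 0.735 and 0.794 in shNC PMA.

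Summed over the members of a class, tested or not, 3 core classes were higher after PMA in shNC and 1 was lower. Class H2B summed to 14.9 ± 6.69 CPM in shNC DMSO and 71.3 ± 3.23 in shNC PMA, class H2A to 14.1 ± 6.70 and 35.2 ± 2.46, and class H4 to 6.63 ± 0.960 and 19.9 ± 3.56. Class H3 went the other way, from 2.82 ± 1.44 to 0.978 ± 0.0457 CPM. H3C14 and H3C15, which hold equal counts, enter that sum as 2 genes, together 1.47 and 0.956 CPM in shNC DMSO and 0 in shNC PMA. The libraries of DMSO and PMA did not overlap for any of the 4 class sums in shNC. Those of class H3 overlapped in shDNMT1 (2.39 and 0.831 CPM in DMSO, 1.58 and 1.16 in PMA) and not in shUHRF1 or shDNMT3B. In shNC DMSO replicate 2, the library without erythroid transcripts, the sums were 10.15, 9.35, 5.95 and 1.81 CPM in that order. After PMA, class H2B stood at 71.3, 62.8, 47.1 and 36.0 CPM in shNC, shUHRF1, shDNMT1 and shDNMT3B. Single genes made up much of the H2A, H4 and H2B sums in shNC PMA. H2AC6 alone went from 2.37 and 2.07 to 22.3 and 25.4 CPM there. The H4C14 and H4C15 pair went from 5.36 and 4.78 to 13.45 and 18.0, and H2BC21 from 2.42 and 1.54 to 42.3 and 40.8. A higher class sum therefore does not mean that the members of the class rose in general.

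Promoters were read for 55 members from RefSeq (GRCh38.p14, 250 bases before to 50 after the start), H2AC12, H3C11 and H4C3 being among those with no entry. The CCAAT box (CCAAT), the octamer typical of H2B genes (ATTTGCAT), the TATA box (TATAAA) and an E2F motif (TTTCCCGC) were searched on both strands, and none of these motifs contains another. Of the 46 replication-dependent promoters, 84.8% hold CCAAT, 47.8% the octamer and 63.0% TATAAA. Of 35116 promoters of that length 34.6%, 1.77% and 11.5% do, and the octamer is in 11 of the 15 H2B promoters. The 46 are not all distinct, so the same motif copy can count for several genes. The entries of H3C4 and H2AC7 are the same interval (chr6:26199244-26199543). Neighbouring H2A and H2B genes on opposite strands, such as H2AC20 and H2BC21, share most of theirs. No member holds the E2F letters, which 1.63% of all promoters do. Both genes shown here, the H2B with the largest rise and the H2B with the largest fall in shNC, hold CCAAT and the octamer, in capitals like TATAAA, which is in that of H2BC21 only.
H2BC21 (chr1:149886633-149886932, minus strand): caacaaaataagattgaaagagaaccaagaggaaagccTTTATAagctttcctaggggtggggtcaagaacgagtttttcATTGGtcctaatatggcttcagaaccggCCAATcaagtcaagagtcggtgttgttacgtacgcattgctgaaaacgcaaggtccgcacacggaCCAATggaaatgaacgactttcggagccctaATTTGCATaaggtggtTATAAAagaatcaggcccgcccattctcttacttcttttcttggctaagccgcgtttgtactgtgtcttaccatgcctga
H2BC9 (chr6:26251364-26251663, plus strand): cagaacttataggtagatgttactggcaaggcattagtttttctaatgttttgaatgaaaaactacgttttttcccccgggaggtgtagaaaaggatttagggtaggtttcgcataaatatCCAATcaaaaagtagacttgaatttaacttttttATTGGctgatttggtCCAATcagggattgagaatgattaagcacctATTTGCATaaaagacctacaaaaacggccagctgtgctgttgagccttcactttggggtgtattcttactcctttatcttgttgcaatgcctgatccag
Among the replication-dependent members that rose in shNC, 6 of 8 promoters hold CCAAT, 5 the octamer and 6 TATAAA. Of the 5 that fell, all hold CCAAT, 2 the octamer and 4 TATAAA. The letters do not separate the directions in so few genes. They could hardly do so for H2BC21, which rose, and H2AC20, which fell, since the promoters of these neighbours overlap over most of their length. A match does not show that a factor binds.

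Against shNC in DMSO, 1 of the 34 tested members was called in shUHRF1 (1.31% of all genes were called), 2 in shDNMT1 (3.96%), MACROH2A2 among them, and 1 in shDNMT3B (4.51%). In PMA 1 was called in shUHRF1 (3.69% of all genes), 2 in shDNMT1 (14.8%), H2BC21 among them, and 5 in shDNMT3B (20.3%), among them H2BC21, H2AC6, H2AZ1 and MACROH2A2. Taking the replicate number as a block raised the number of members called against shNC in DMSO from 1 to 7 in shUHRF1 (11.5% of all genes), from 2 to 5 in shDNMT1 (13.6%) and from 1 to 4 in shDNMT3B (18.7%). In PMA it raised them from 1 to 4 (15.2%), from 2 to 9 (31.4%) and from 5 to 11 (39.9%). These comparisons share the shNC libraries, so they are not independent of each other.

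**Figure D4:**
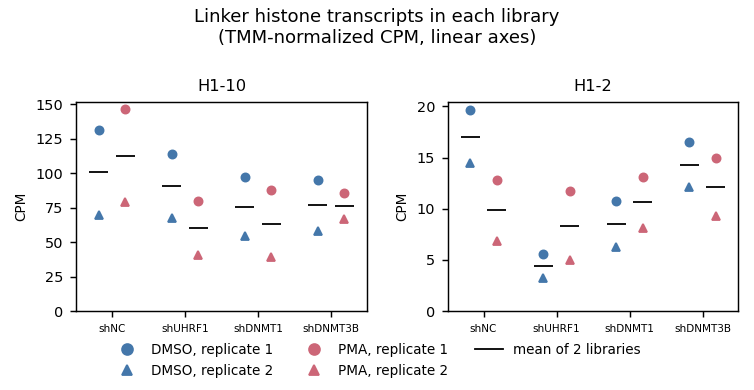
CPM (TMM-normalized, linear axes from 0) of 2 linker histone genes in each of the 16 libraries, with DMSO in blue, PMA in red, replicate 1 as circles, replicate 2 as triangles and a black bar for the mean of 2. For H1-10 replicate 1 lies above replicate 2 in every group.

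Of the linker genes, H1-10, without a stem-loop, was at 132 and 70.0 CPM in shNC DMSO and at 146 and 79.2 in shNC PMA, and it did not pass in any PMA or knockdown comparison. With the block it passed as lower after PMA in shUHRF1 (adjusted p = 0.000428) and as lower than shNC in PMA in shUHRF1, shDNMT1 and shDNMT3B (adjusted p = 6.87e-05, 4.69e-05 and 0.00612). H1-2, the most abundant replication-dependent linker gene, was at 19.6 and 14.45 CPM in shNC DMSO, at 5.61 and 3.28 in shUHRF1 DMSO, 10.75 and 6.23 in shDNMT1 DMSO and 16.5 and 12.1 in shDNMT3B DMSO. Its log2 difference in shUHRF1 was -1.94 ± 0.47 (adjusted p = 0.0728, and 1.05e-07 with the replicate number as a block). With the block it also passed as lower in shDNMT1 DMSO (adjusted p = 0.000234). Its PMA response then passed in shNC (-0.83, adjusted p = 0.000252) and in shUHRF1 (0.89, adjusted p = 0.000387), and those in shUHRF1 and shDNMT1 differed from that in shNC by 1.71 and 1.16 (adjusted p = 0.000193 and 0.00203).

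After PMA, H2BC21 was lower in the libraries labelled shDNMT3B and shDNMT1 than in shNC. Its log2 differences were -2.06 ± 0.22 in shDNMT3B and -0.78 ± 0.21 in shDNMT1 (adjusted p = 6e-05 and 0.0252), and the shUHRF1 libraries of 43.6 and 40.8 CPM overlapped those of shNC at 42.3 and 40.8. H2BC21 made up 58.2%, 67.1%, 51.5% and 27.7% of the H2B counts in PMA in shNC, shUHRF1, shDNMT1 and shDNMT3B. The call in shDNMT1 was lost without any 1 of its 4 libraries (adjusted p from 0.0647 to 0.149). H2AC6 was lower in shDNMT3B as well, by 0.92 ± 0.26 on the log2 scale (11.0 and 14.2 CPM against 22.3 and 25.4, adjusted p = 0.0233). That call was lost without any 1 of its libraries (log2 differences -1.121 to -0.743) and with upper-quartile factors (-0.789, adjusted p = 0.0513).

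H2AZ1 and MACROH2A2 were higher in shDNMT3B PMA. H2AZ1 exceeded shNC by 1.67 ± 0.32 on the log2 scale (441 and 337 CPM against 138 and 106, adjusted p = 0.00317), and MACROH2A2 by 1.34 ± 0.28 (5.25 and 4.82 CPM against 2.15 and 1.80, adjusted p = 0.00576, and 0.0525 without shNC PMA replicate 2). In DMSO, MACROH2A2 was lower in shDNMT1, at 3.47 and 3.38 CPM, than in shNC, at 9.46 and 9.56 (-1.47 ± 0.26, adjusted p = 0.00637, and 0.0346 without shNC DMSO replicate 1), a call lost without either shDNMT1 DMSO library (adjusted p = 0.0705 and 0.0687). The PMA response of H2AZ1 in shDNMT3B differed from that in shNC by 2.01 ± 0.45 (adjusted p = 0.0157). That difference was 1.66 without shNC DMSO replicate 1 (adjusted p = 0.0644), and it was also lost without shNC PMA replicate 2, shDNMT3B DMSO replicate 2 or shDNMT3B PMA replicate 1 (adjusted p from 0.0682 to 0.0784).

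Among the 34 tested members, the difference of the PMA response from that of shNC was called for 1 in shDNMT1 and for 1 in shDNMT3B, which was H2AZ1, against 6.71% and 6.77% of all genes, and none was called in shUHRF1, against 0.848%. In shUHRF1, 3 members had an unadjusted p under 0.05, DESeq2 called 0, and 5 passed with the replicate number as a block. In shUHRF1 8.48% of all genes passed with the block. Differences of the response went from 1 to 4 in shDNMT1 (18.6%) and from 1 to 8 in shDNMT3B (19.5%). With the block, H2AX exceeded shNC in shDNMT3B PMA by 1.08 (adjusted p = 6.59e-06), where H2AX was at 69.8 and 55.2 CPM against 36.1 and 24.4 in shNC.

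The replicate number itself moved with histone transcripts. Between replicates 2 and 1, over all 8 groups, 16 of 34 tested members were lower in replicate 2 (47.1%, against 19.4% of all genes) and 0 were higher (20.9% of all genes, with DESeq2 also calling 0 and 18 members at an unadjusted p under 0.05, all in the same direction). H1-10 was lower by 0.82 ± 0.07 on the log2 scale (adjusted p = 4.29e-09), H2AX by 0.78 ± 0.07 (adjusted p = 2.29e-08) and H2AJ by 0.71 ± 0.08 (adjusted p = 1.29e-07). H2BC21 did not pass. Libraries numbered 1 also had the larger totals, and within each group the larger share of mitochondrial counts (7.71% to 29.0%, against 3.92% to 14.5% in those numbered 2), and the part of these in the members' difference was not tested. Every PMA and knockdown comparison holds 1 library of each number on both sides.

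The genes that serve histone supply were read from 3 lists. All 24 S phase and DNA synthesis genes fell after PMA in each of the 4 lines (26.0%, 25.5%, 24.1% and 19.7% of all genes did in shNC, shUHRF1, shDNMT1 and shDNMT3B), with median log2 fold changes of -3.38, -3.51, -2.62 and -1.92 in shNC, shUHRF1, shDNMT1 and shDNMT3B. CDC6, which loads the replicative helicase, went from 52.7 ± 3.08 to 3.56 ± 0.0622 CPM in shNC (adjusted p = 1.79e-09) and RRM2, a subunit of ribonucleotide reductase, from 79.1 ± 5.51 to 7.33 ± 0.474 (adjusted p = 5.87e-09). After PMA, 19 of the 24 were higher in shDNMT3B than in shNC (11.3% of all genes were), 15 were higher in shDNMT1 (8.5%) and 1 in shUHRF1 (2.04%), and none was lower. In the same libraries H2AZ1 was higher in shDNMT3B, and among the replication-dependent members called there, H2BC21 and H2AC6 were lower.

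Of 31 histone chaperones and deposition factors, 18 fell and 3 rose in shNC PMA (26.0% and 28.4% of all genes did), and 17, 18 and 16 fell and 2, 2 and 0 rose in shUHRF1, shDNMT1 and shDNMT3B (25.5%, 24.1% and 19.7% of all genes fell, and 29.4%, 28.6% and 25.2% rose). With the replicate number as a block 19, 19, 18 and 18 fell and 8, 4, 4 and 4 rose in shNC, shUHRF1, shDNMT1 and shDNMT3B. In that fit 32.6%, 32.5%, 31.0% and 27.5% of all genes fell and 34.5%, 35.4%, 34.4% and 32.5% rose. The median log2 fold change of the 31 in shNC was -0.950, and -1.031 without shNC DMSO replicate 1. ASF1B, an H3-H4 chaperone of dividing cells, went from 76.9 ± 3.51 to 4.41 ± 0.222 CPM in shNC (adjusted p = 1.16e-09), and the chromatin assembly factor subunit CHAF1B from 29.1 ± 2.91 to 2.53 ± 0.606 (adjusted p = 1.76e-08). UBN1, a subunit of the complex that deposits H3.3, rose from 35.9 ± 5.50 to 68.7 ± 2.06 CPM (adjusted p = 0.000947). Its partner HIRA did not pass (57.7 ± 8.42 and 45.3 ± 5.83 CPM, adjusted p = 0.192, and 0.0134 with the block).

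Among 19 genes of histone gene transcription and mRNA processing, 2 rose and 6 fell in shNC (28.4% and 26.0% of all genes did). Their median log2 fold change there was -0.132, and -0.130 without shNC DMSO replicate 1. SLBP went from 81.7 and 83.0 to 48.7 and 48.3 CPM (log2 fold change -0.76 ± 0.17, adjusted p = 0.0019), and NPAT, the coactivator of histone gene transcription, was at 11.7 and 11.8 CPM in DMSO and 8.98 and 12.6 in PMA and did not pass (-0.13 ± 0.24). LSM11, a part of the U7 particle that cuts histone messages after the stem-loop, fell by 1.60 ± 0.22 (adjusted p = 4.2e-05), and TUT7, a terminal uridyltransferase that acts in histone mRNA decay, rose by 3.16 ± 0.19 (16.9 ± 0.997 to 151 ± 0.445 CPM, adjusted p = 2.34e-08). In the other lines 1 rose in each, and 4, 5 and 4 fell in shUHRF1, shDNMT1 and shDNMT3B. Of all genes 29.4%, 28.6% and 25.2% rose and 25.5%, 24.1% and 19.7% fell in these lines. With the replicate number as a block 5, 3, 4 and 3 rose and 7, 6, 8 and 6 fell in shNC, shUHRF1, shDNMT1 and shDNMT3B. In that fit 34.5%, 35.4%, 34.4% and 32.5% of all genes rose and 32.6%, 32.5%, 31.0% and 27.5% fell.

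Without shNC DMSO replicate 1, the library with erythroid transcripts, the median log2 fold change of the tested members in shNC was 0.48. That of all genes was 0.005. H2AJ and H1-4 were among the members that then lost their calls (log2 fold change -0.76 and -1.71). H2BC21, H2AC6, H2BC12, H2BC9, H2AC20, H2AX, H2AZ1, H2AZ2 and MACROH2A2 kept theirs, with log2 fold changes of 4.75, 3.52, 2.63, -3.37, -2.63, -2.34, -1.93, -1.66 and -2.26.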

How the data were processed

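Per the submitters' processing notes, reads were processed with STAR 2.4.0b, Cufflinks 2.1.1, HTSeq 0.6.1p1 and edgeR on hg38. The libraries came from a stranded kit, and the strand setting of the counting is not given in the sources used here. The authors deposited whole-number counts per gene for 16 libraries, not normalized, of 13883556 to 23151864 counts each. Genes were named and located with GENCODE 44. All 8 groups were fitted together in edgeR 4.0.16 (R 4.3.3) with TMM factors and the quasi-likelihood test after filterByExpr (minimum count 10, 16503 genes), with Benjamini-Hochberg adjustment over all genes tested, all tests being two-sided. Values after ± are SDs for CPM (n = 2) and standard errors for log2 fold changes. Same-numbered libraries of different groups deviated together in 28 of 28 pairs of groups (correlation 0.2205 to 0.5078), so the replicate number, which comes from the column names, was taken to pair the libraries, and a fit with it as a block was also made. Alternatives were DESeq2 1.42.0, upper-quartile factors, no filter, the pairwise DEGES route with edgeR's exact test, and each library left out in turn, which can leave 1 library in a group that is then assumed to vary like the other groups. The code was tested on simulated data. The members and gene lists were chosen with earlier results of these data known. Named members were the 2 most abundant of each class, the 8 variants, the 3 with the smallest adjusted p in each direction of each PMA response, up to 4 called in each other comparison and those at the limit of 16 counts. Named list genes were up to 4 with the smallest adjusted p in shNC PMA, with SLBP and NPAT. UBN1 and HIRA were picked after their values were seen. H2AC18 and H2AC19 were not analysed here. A further member enters the counts of members and is not reported by itself here.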

Additional observations from a re-analysis of the deposited data

Results flagged for a closer look

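The difference between lines in the PMA response, tested as such, passed for H2AZ1. The response on the log2 scale in the libraries labelled shDNMT3B differed from that in shNC by 2.010 (edgeR's quasi-likelihood test, adjusted p = 0.0157), with 441 and 337 CPM in shDNMT3B PMA against 138 and 106 in shNC PMA. With 1 library left out the difference was 1.66 to 2.291 over 8 fits. The call was lost in 4 of these, that without shNC DMSO replicate 1 among them.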

How the results depend on the processing

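No call among 103 changed direction under any alternative. Of 87 calls in the PMA, knockdown and difference comparisons, 52 were kept in every fit with a library left out and 35 were lost in at least 1. The other settings lost few calls: DESeq2 lost 4, the absence of a filter 4, upper-quartile factors 9, the DEGES route 2 and the replicate block 0. With upper-quartile factors the median log2 fold change of all genes in the PMA comparisons moved to between -0.312 and -0.219, and 7 members in place of 11 rose in shUHRF1. The DEGES route gave 10 fallers in place of 6 in shDNMT3B. The cause was not tested.

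The counts of members called against shNC depended most on the setting. With the replicate block they were 7, 5 and 4 in DMSO (shUHRF1, shDNMT1, shDNMT3B), 4, 9 and 11 in PMA, and 5, 4 and 8 for the difference of the response. In the PMA comparisons the block moved no count over the 34 tested members by over 1.5 times and lost none of their calls, whereas smaller groups of members and the lists moved more, as given with them. Without a filter they were 7, 5 and 2 in DMSO, 4 and 5 in PMA for shUHRF1 and shDNMT1, and 2 and 4 for the difference in shUHRF1 and shDNMT3B, and 2 members were higher in replicate 2. DESeq2 gave 5 and 2 in DMSO for shUHRF1 and shDNMT3B, 2 in PMA for shUHRF1 and 2 for the difference in shDNMT3B. The DEGES route gave 0 in DMSO for shDNMT3B and 3, 5 and 8 in PMA.

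With 1 library left out, risers after PMA numbered 9 to 10 in shNC, 6 to 11 in shUHRF1, 9 to 10 in shDNMT1 and 6 to 7 in shDNMT3B, and fallers 8 to 11, 7 to 10, 4 to 8 and 2 to 6. Members called against shNC numbered 1 to 1, 1 to 2 and 0 to 1 in DMSO and 0 to 1, 0 to 1 and 3 to 4 in PMA, and the differences 0 to 0, 0 to 1 and 0 to 1. Most members that end at the stem-loop had too few counts to be tested at this depth.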
